A study of Mus musculus with 66 samples.

Results

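Transcript levels in the whole cerebellum at embryonic day 15 (E15) were compared with those at E14, a step of 1 day, in mice of the strains C57BL/6J and DBA/2J. The comparison used the arrays labelled E15 or E14, 11 of the 66 arrays of a developmental time course that runs from E12 to postnatal day 9. There were 3 arrays for C57BL/6J E15, 2 for C57BL/6J E14, 3 for DBA/2J E15 and 3 for DBA/2J E14. Both are inbred strains, and the labels give no treatment and no genetic change in either. Total RNA was labelled with biotin and hybridised to Illumina bead arrays, on which each probe is meant to read the level of 1 transcript. The labels call the replicates biological, but how many cerebella were pooled and which sex the embryos had went unstated in the sources used here. The p-values rest on the spread between samples of the same strain and age, pooled over all 66 arrays and not taken from the 11 alone.

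At these ages the mouse cerebellum is still being built from its germinal zones. The ventricular zone gives rise to GABAergic neurons, among them the Purkinje cells, and the rhombic lip gives rise to glutamatergic neurons, first those of the cerebellar nuclei and then the granule cell progenitors that spread over the surface. Neurons born earlier migrate, extend axons and begin to make synaptic proteins while the germinal zones are still active. In the blood that fills the tissue, red cells made in the yolk sac, which carry embryonic globins, are being replaced by red cells made in the fetal liver, which carry adult globins.

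Values are given as the normalised signal on the log2 scale, where a difference of 1 is a doubling of the signal. The change is E15 minus E14, taken as the equal-weight mean of the change in each strain, with the standard error (SE) of the fitted model. A probe or gene was called when its p-value, from limma with the Benjamini-Hochberg adjustment over all 26645 detected probes, was under 0.05. The median signal of an array was 6.44 after normalisation, and changes of probes near that level may be understated because dim probes also read background. In whole tissue, fewer cells of a type and less RNA per cell cannot be told apart. The defining transcripts of cerebellum were present at both ages: the patterning factor En2 ran from 12.08 to 12.61 at E15 and from 12.23 to 12.72 at E14, and Zic1 from 12.51 to 13.29 at E15 and from 12.22 to 12.85 at E14. The granule cell progenitor factor Atoh1 has a probe on the array, but that probe did not pass the filter on dim probes.

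The 11 arrays differed in how far along the time course they lay. On a scale over the 14017 measured genes, where the mean E13 profile of a strain is 0 and its mean E17 profile is 1, the C57BL/6J E15 arrays lay at 0.83, 0.82 and 0.93, and the C57BL/6J E14 arrays at 0.57 for replicate 1 and 0.18 for replicate 2. The DBA/2J E15 arrays lay at 0.67, 0.70 and 0.56, and the DBA/2J E14 arrays at 0.39, 0.65 and 0.43. C57BL/6J E14 replicate 2 thus stood closer to E13, and DBA/2J E14 replicate 2 lay among the E15 arrays of its strain. The sex-linked transcripts also differed from array to array: Xist, made from the inactive X, was 9.40, 7.54 and 9.84 in C57BL/6J E15 and 9.23, 9.58 and 10.81 in DBA/2J E15, against 9.41 and 11.27 in C57BL/6J E14 and 11.50, 8.78 and 11.53 in DBA/2J E14. The Y-linked Eif2s3y was 8.77, 9.23 and 9.24 in C57BL/6J E15 and 9.26, 9.18 and 8.27 in DBA/2J E15, against 7.71 and 8.03 in C57BL/6J E14 and 8.02, 8.74 and 7.80 in DBA/2J E14. In C57BL/6J every E15 array was above every E14 array for Eif2s3y, while in DBA/2J the ages overlapped. The highest Xist value was 10.81 at E15 and 11.53 at E14, so the mix of sexes may have differed between the ages. Neither transcript was called between the ages, and the part that the mix of sexes or exact embryo stage had in the results was not tested.

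**Figure D1:**
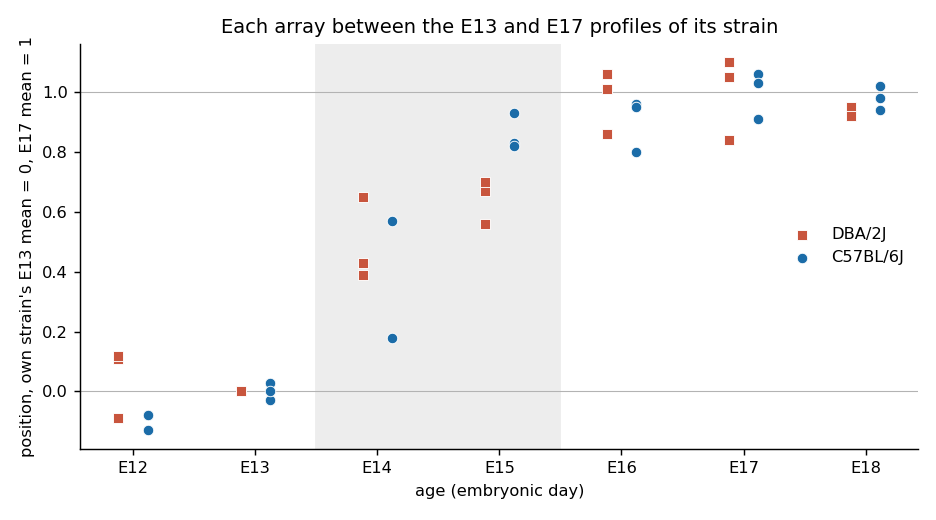
Position of each array (points; squares DBA/2J, circles C57BL/6J) between the mean E13 profile (0) and the mean E17 profile (1) of its own strain, by labelled age on the horizontal axis, with E14 and E15 shaded. The 2 C57BL/6J E14 arrays lie at 0.57 and 0.18, and the E15 arrays of both strains lie between 0.56 and 0.93.

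Between E14 and E15 more transcripts rose than fell. Over both strains 1097 of 26645 probes were called, which is 4.12%: 726 were higher (2.72%) and 371 lower (1.39%) at E15, and 42 of them had changed at least 2-fold (30 higher, 12 lower). At the level of genes, each read by its brightest detected probe, 753 of 14017 were called (5.37%), 555 higher (3.96%) and 198 lower (1.41%), while the median change over all genes was 0.02. When every array was scaled to the same median instead of quantile normalised, 346 probes were called higher and 302 lower, so the share of rises among the called probes was 53.4% there and 66.2% in the quantile-normalised values. The count rested strongly on the C57BL/6J E14 arrays: 147 probes were called without replicate 2 and 2980 without replicate 1. Without DBA/2J E14 replicate 1 the count was 2018, without DBA/2J E15 replicate 3 it was 1810, without DBA/2J E14 replicate 3 it was 690 and without DBA/2J E15 replicate 1 it was 583.

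The 15 largest rises among genes called with the same sign in each strain included those of Sned1, Dusp5, Cpne9, Sphk1, Caln1, Ppp2r2c, Dlg2, Cadps2, Tnc, Grm7, Snhg11, Dpp10 and Mfge8. The 15 largest falls were those of Hba-x, Hbb-y, Cntn2, Evx1, Hbb-bh1, Olig3, Klhl35, Crabp2, Dbx1, Crabp1, Robo3, H2ac18, Chst8, Tnpo1 and Ezh2. In 21 of these 30 genes the E15 arrays did not overlap the E14 arrays, which was the case for 358 of all 14017 genes (2.55%), with 244 wholly above (1.74%) and 114 wholly below (0.813%). The 30 were chosen for their size in this comparison, so that count describes them and tests nothing. Of the 30, 19 kept their call under all 26 alternative settings tried (11 rising, 8 falling). Among the 30, 14 had further detected probes, 19 in all, of which 3 were called in the same direction, none in the opposite direction and 16 were not called. Those not called included probes of Sphk1 (0.08 ± 0.07), Caln1 (-0.1 ± 0.05), Ppp2r2c (-0.09 ± 0.07) and Cadps2 (-0.06 ± 0.14). They also included probes of Grm7 (0.19 ± 0.13) and Cntn2 (-0.26 ± 0.1 and -0.3 ± 0.14).

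Sned1, which encodes a secreted matrix protein, had the largest rise. Its signal was 10.21, 10.64 and 10.75 in C57BL/6J E15 and 10.25, 10.14 and 9.64 in DBA/2J E15, against 8.91 and 8.45 in C57BL/6J E14 and 8.46, 8.44 and 8.67 in DBA/2J E14. All 6 E15 arrays lay above all 5 E14 arrays. The change was 1.67 ± 0.18, a 3.18-fold rise (limma, adjusted p = 2.32e-08). A dimmer second probe for Sned1, at 6.15 to 6.44 at E15 and 6.19 to 6.55 at E14, was not called (-0.08 ± 0.06, adjusted p = 0.504 by limma).

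Dusp5, a nuclear phosphatase that inactivates ERK, was 9.01, 9.64 and 9.80 in C57BL/6J E15 and 9.10, 9.41 and 8.86 in DBA/2J E15, against 7.76 and 7.65 in C57BL/6J E14 and 7.64, 7.79 and 7.71 in DBA/2J E14. The E14 arrays lay within a narrow band and the E15 arrays of both strains stood clear of it. The rise was 1.59 ± 0.24, or 3.02-fold (limma, adjusted p = 1.97e-05). Dusp6, another ERK phosphatase, had a change of 0.54 ± 0.18 that did not pass (adjusted p = 0.0798 by limma), and Fos and Egr1, early targets of ERK signalling, had changes of 0.13 ± 0.09 and 0.40 ± 0.18 that did not pass either.

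Sphk1, the kinase that makes sphingosine 1-phosphate, was 8.96, 8.57 and 9.05 in C57BL/6J E15 and 8.34, 8.72 and 8.64 in DBA/2J E15, against 7.64 and 7.10 in C57BL/6J E14 and 6.90, 7.47 and 7.07 in DBA/2J E14. Its rise of 1.45 ± 0.12 (2.74-fold, limma, adjusted p = 2.15e-11) was 1.42 ± 0.16 in DBA/2J and 1.49 ± 0.18 in C57BL/6J. Cpne9, a member of the copine family of calcium-dependent membrane-binding proteins, was 9.26, 9.25 and 9.55 in C57BL/6J E15 and 8.67, 9.24 and 8.84 in DBA/2J E15, against 8.03 and 7.56 in C57BL/6J E14 and 7.13, 7.80 and 7.61 in DBA/2J E14, a rise of 1.48 ± 0.22 (limma, adjusted p = 1.12e-05). A second Cpne9 probe was called in the same direction (0.56 ± 0.11). Caln1, a calmodulin-like calcium sensor of neurons, was 10.35, 10.23 and 10.31 in C57BL/6J E15 and 9.71, 10.11 and 10.01 in DBA/2J E15, against 8.81 and 8.74 in C57BL/6J E14 and 8.22, 8.60 and 9.02 in DBA/2J E14. It rose by 1.42 ± 0.20 (limma, adjusted p = 3.49e-06), and the E15 and E14 arrays did not overlap.

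Among the remaining large rises were genes that act at synapses or in secretion. Grm7, a presynaptic metabotropic glutamate receptor, was 8.93, 9.02 and 9.21 in C57BL/6J E15 and 8.55, 8.46 and 7.77 in DBA/2J E15, against 7.93 and 7.27 in C57BL/6J E14 and 7.61, 7.49 and 7.39 in DBA/2J E14. DBA/2J E15 replicate 3 fell inside the E14 range, and the rise over both strains was 1.10 ± 0.12 (limma, adjusted p = 2.32e-08). Dlg2, the postsynaptic scaffold PSD-93, rose by 1.31 ± 0.23 and of 2 dimmer probes for it 1 was called (0.44 ± 0.08) and the other was not (0.08 ± 0.06, adjusted p = 0.495 by limma). Its E15 range of 8.97 to 10.41 overlapped its E14 range of 8.24 to 9.53. The change of Dlg2 without C57BL/6J E14 replicate 2 was 0.99 with an adjusted p of 0.0541 by limma. Cadps2, a priming factor for dense-core vesicle release, rose by 1.20 ± 0.22, with an E15 range of 7.10 to 8.34 above an E14 range of 6.24 to 6.72 that lies at the array median. Dpp10, an auxiliary subunit of A-type potassium channels, rose by 1.10 ± 0.19, and its call was lost without C57BL/6J E14 replicate 2 (0.77, adjusted p = 0.0601 by limma).

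The other large rises were of mixed function. Tnc, which encodes the matrix glycoprotein tenascin-C of radial glia and astrocyte precursors, ran from 9.73 to 10.87 at E15 and from 8.32 to 9.49 at E14 and rose by 1.17 ± 0.22 (limma, adjusted p = 0.000521), while 2 dimmer Tnc probes had changes of 0.37 ± 0.26 and 0.06 ± 0.25 that did not pass. Mfge8, a secreted bridge between dying cells and phagocytes, ran from 9.05 to 10.21 at E15 and from 8.23 to 8.80 at E14 and rose by 1.09 ± 0.12. Ppp2r2c, a neuronal regulatory subunit of protein phosphatase 2A, rose by 1.32 ± 0.23. The long noncoding RNA Snhg11 rose by 1.10 ± 0.23, but its call was lost without C57BL/6J E14 replicate 2 (0.85, adjusted p = 0.138 by limma). A second Snhg11 probe, at 8.20 to 10.17 at E15 and 8.43 to 9.97 at E14, was not called (0.07 ± 0.33, adjusted p = 0.937 by limma).

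**Figure D2:**
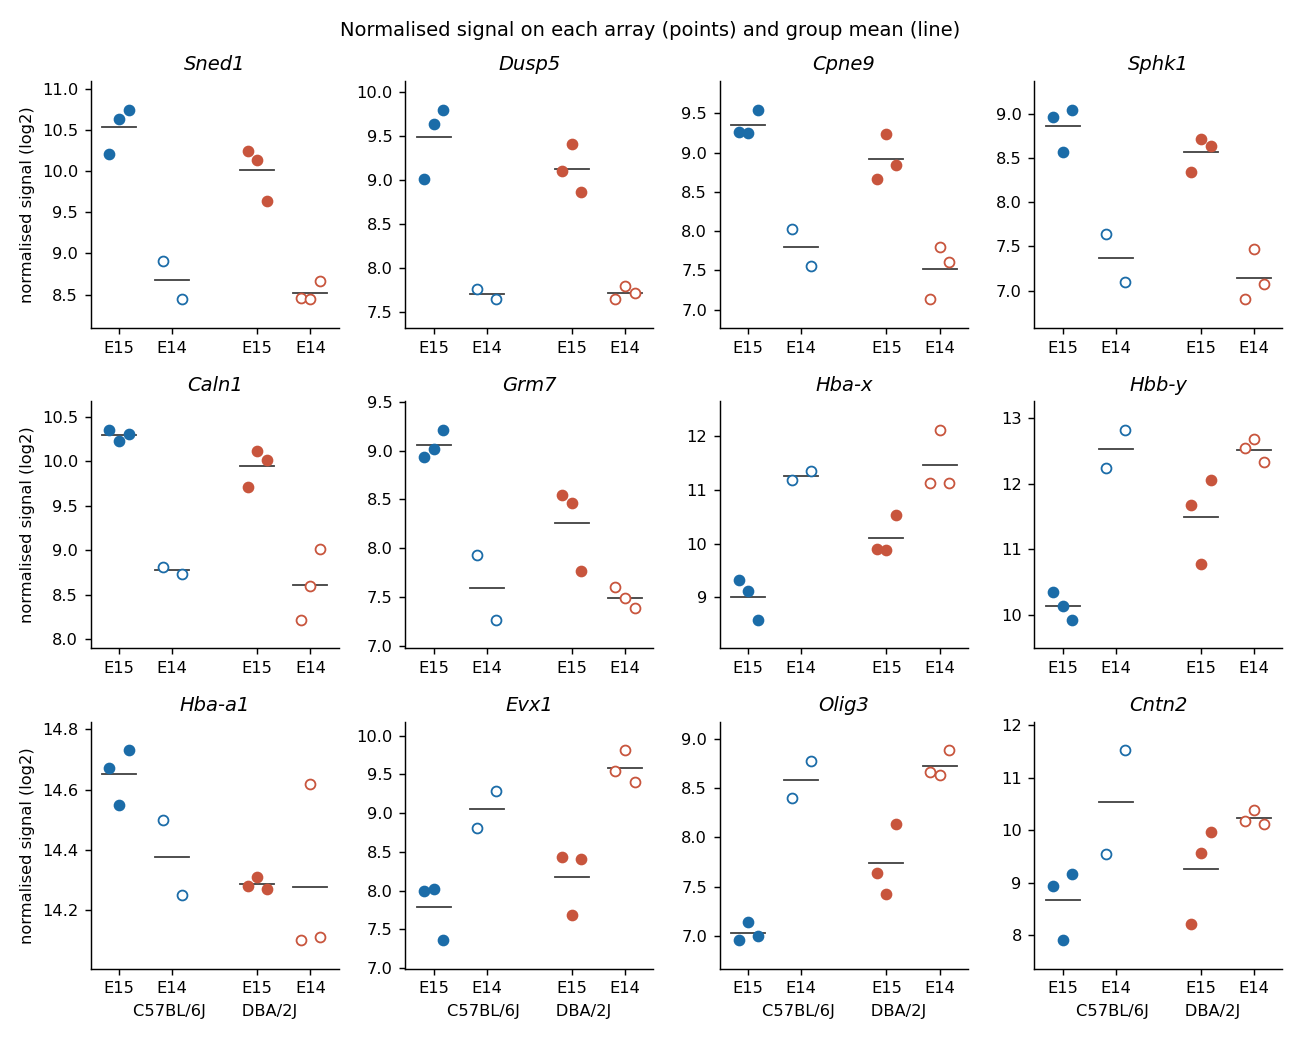
Normalised signal on the log2 scale (vertical axis) of 12 genes on each array, with filled points for E15, open points for E14 and a line at the group mean, C57BL/6J on the left and DBA/2J on the right of each panel. Sned1, Dusp5, Cpne9, Sphk1 and Caln1 have every E15 point above every E14 point, Hba-x, Hbb-y, Evx1 and Olig3 have every E15 point below every E14 point, and the adult globin Hba-a1 overlaps.

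Embryonic globins had the largest falls, those of Hba-x and Hbb-y, and Hbb-bh1 was the fifth in order. Hba-x, the zeta-like alpha globin of yolk sac red cells, on chromosome 11, was 9.32, 9.11 and 8.58 in C57BL/6J E15 and 9.91, 9.88 and 10.54 in DBA/2J E15, against 11.18 and 11.35 in C57BL/6J E14 and 11.13, 12.12 and 11.13 in DBA/2J E14. It fell by 1.81 on the log2 scale, with an SE of 0.26 (limma, adjusted p = 1.13e-05), a 3.50-fold difference. Hbb-y, an embryonic beta globin on chromosome 7, was 10.35, 10.13 and 9.92 in C57BL/6J E15 and 11.67, 10.77 and 12.05 in DBA/2J E15, against 12.24 and 12.82 in C57BL/6J E14 and 12.55, 12.68 and 12.33 in DBA/2J E14, a change of -1.71 ± 0.33 (limma, adjusted p = 0.00102). Hbb-bh1, the other embryonic beta globin, was 6.98, 7.11 and 6.77 in C57BL/6J E15 and 7.80, 7.34 and 7.80 in DBA/2J E15, against 7.90 and 7.90 in C57BL/6J E14 and 8.89, 9.86 and 9.35 in DBA/2J E14, a change of -1.33 ± 0.20 (limma, adjusted p = 1.50e-05). In each of these 3 genes all E15 arrays lay below all E14 arrays.

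None of the other blood transcripts was called. Of 13 measured genes of the blood list 3 fell, the embryonic globins, and none rose, with a median change of -0.02; over all genes 1.41% fell and 3.96% rose. The adult alpha globin Hba-a1 was 14.67, 14.55 and 14.73 in C57BL/6J E15 and 14.28, 14.31 and 14.27 in DBA/2J E15, against 14.50 and 14.25 in C57BL/6J E14 and 14.10, 14.62 and 14.11 in DBA/2J E14. Its change of 0.14 ± 0.16 did not pass (adjusted p = 0.687 by limma), nor did that of the adult beta globin Hbb-b1 (0.33 ± 0.16, adjusted p = 0.274 by limma) or of the haem synthesis enzyme Alas2 (0.18 ± 0.14, adjusted p = 0.505 by limma). Adult alpha globin has 2 nearly identical copies, which a probe may not separate, and the amount of blood in each sample was not measured.

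Promoter stretches of the embryonic and adult globins are shown because globin promoters hold known short elements near the start of transcription. They run from 130 bases before to 20 bases after the start, on the coding strand, in RefSeq for GRCm38.p6. Capitals mark elements known from globin promoters, searched on both strands: CACCC, bound by Krüppel-like factors such as Klf1, then CCAAT, bound by NF-Y among others, and GATAA, bound by GATA factors. Hba-x lies at chr11:32276470-32276619 on the plus strand, Hbb-y at chr7:103853188-103853337 on the minus strand and Hba-a1 at chr11:32283542-32283691 on the plus strand.
Hba-x: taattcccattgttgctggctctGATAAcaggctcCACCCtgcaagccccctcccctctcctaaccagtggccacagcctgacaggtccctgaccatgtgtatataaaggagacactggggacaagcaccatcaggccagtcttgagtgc
Hbb-y: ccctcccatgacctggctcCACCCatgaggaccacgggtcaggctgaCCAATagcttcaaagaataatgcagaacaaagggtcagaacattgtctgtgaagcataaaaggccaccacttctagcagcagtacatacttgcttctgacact
Hba-a1: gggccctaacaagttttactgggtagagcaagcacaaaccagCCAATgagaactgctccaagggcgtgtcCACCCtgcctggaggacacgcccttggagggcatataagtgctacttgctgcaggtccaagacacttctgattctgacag

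CACCC was found in all 3 stretches, with its first base at -95 from the start in Hba-x, at -111 in Hbb-y and at -60 in Hba-a1. CCAAT was found at -83 in Hbb-y and at -88 in Hba-a1, and GATAA at -107 in Hba-x. In all 27025 mouse promoters of the table, cut to the same window, CACCC was present in 36.4%, CCAAT in 24.9% and GATAA in 13.1%. A match to these letters is a description of the sequence and not a measured binding site.

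Among the other large falls were those of transcription factors. Evx1, a homeobox factor of early-born hindbrain and spinal cord interneurons, was 8.0, 8.02 and 7.36 in C57BL/6J E15 and 8.44, 7.69 and 8.41 in DBA/2J E15, against 8.81 and 9.29 in C57BL/6J E14 and 9.55, 9.81 and 9.40 in DBA/2J E14. It changed by -1.34 ± 0.16 (limma, adjusted p = 4.56e-07), at -1.41 ± 0.22 in DBA/2J and -1.26 ± 0.24 in C57BL/6J. Olig3, a bHLH factor of dorsal hindbrain progenitors, was 6.96, 7.15 and 7.0 in C57BL/6J E15 and 7.64, 7.43 and 8.14 in DBA/2J E15, against 8.40 and 8.77 in C57BL/6J E14 and 8.66, 8.63 and 8.88 in DBA/2J E14. Its change of -1.27 ± 0.09 had the lowest adjusted p of all probes (3.01e-13 by limma). In both genes every E15 array lay below every E14 array.

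Cntn2, the axonal adhesion molecule TAG-1 of newly born granule cells and commissural axons, was 8.93, 7.90 and 9.16 in C57BL/6J E15 and 8.22, 9.57 and 9.97 in DBA/2J E15, against 9.55 and 11.52 in C57BL/6J E14 and 10.17, 10.38 and 10.12 in DBA/2J E14. Its change of -1.42 ± 0.31 (limma, adjusted p = 0.00314) leaned on the highest array, C57BL/6J E14 replicate 2. Without that array the change was -0.93 and did not pass (adjusted p = 0.276 by limma). Robo3, the receptor that lets commissural axons cross the midline, ran from 8.28 to 9.72 at E15 and from 9.49 to 10.27 at E14 and changed by -0.98 ± 0.23, a call that was also lost without that array (adjusted p = 0.112 by limma). Of 26 measured genes of axon guidance and migration, 1 rose (3.96% of all genes rose) and 3 fell (1.41% of all genes fell), with a median change of 0.01. None of the 3 falls passed without C57BL/6J E14 replicate 2. The riser was Sema3a, a secreted repellent of axons, with 10.13, 9.89 and 9.99 in C57BL/6J E15 and 9.66, 9.81 and 9.27 in DBA/2J E15, against 9.08 and 8.16 in C57BL/6J E14 and 9.01, 8.72 and 8.82 in DBA/2J E14. All of its E15 arrays were higher than all of its E14 arrays, and it rose by 1.06 ± 0.13 (limma, adjusted p = 4.56e-07). The other genes that fell were Plxna2, a semaphorin receptor (-0.66 ± 0.15), and Dcc, a netrin receptor (-0.64 ± 0.19).

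The retinoic acid binding proteins fell together. Crabp2 was 6.80, 6.87 and 6.80 in C57BL/6J E15 and 7.60, 7.11 and 7.48 in DBA/2J E15, against 7.92 and 8.21 in C57BL/6J E14 and 8.11, 8.66 and 7.96 in DBA/2J E14, a change of -1.04 ± 0.15 (limma, adjusted p = 4.83e-06). Crabp1 ran from 6.76 to 7.43 at E15 and from 7.64 to 8.76 at E14 and changed by -1.01 ± 0.21 (limma, adjusted p = 0.00195), or by -0.81 with an adjusted p of 0.117 without C57BL/6J E14 replicate 2. They were the only called genes among 10 measured genes of retinoic acid handling, whose median change was -0.02, and Cyp26b1, which degrades retinoic acid, was at -0.03 ± 0.15. Other large falls were those of Klhl35 (-1.12 ± 0.15), of Chst8, a sulfotransferase of glycoprotein hormones (-0.88 ± 0.12), and of Tnpo1, a nuclear import receptor (-0.87 ± 0.19). Ezh2, the methyltransferase of Polycomb repressive complex 2, changed by -0.86 ± 0.26 (limma, adjusted p = 0.0427). Its values were 9.10, 8.25 and 9.46 in C57BL/6J E15 and 8.81, 10.57 and 10.80 in DBA/2J E15, against 8.95 and 11.05 in C57BL/6J E14 and 10.78, 10.70 and 10.69 in DBA/2J E14, so the groups overlapped, and without C57BL/6J E14 replicate 2 its change was -0.34 (adjusted p = 0.923 by limma).

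The called genes of the patterning and progenitor lists were lower at E15. Of 12 measured genes of the isthmus and anterior hindbrain 4 fell and none rose, with a median change of -0.16 and 10 of 12 below 0. Over all genes 1.41% fell, 3.96% rose, and 6253 of 14017 had a change below 0 and 7764 above 0. Dbx1, a progenitor homeobox factor, was 9.12, 8.11 and 7.05 in C57BL/6J E15 and 8.28, 8.43 and 8.36 in DBA/2J E15, against 9.0 and 9.49 in C57BL/6J E14 and 9.43, 8.97 and 9.35 in DBA/2J E14. C57BL/6J E15 replicate 1 was as high as the E14 arrays, and the change was -1.02 ± 0.23 (limma, adjusted p = 0.00441). The homeobox genes Msx3 (-0.73 ± 0.17) and Gbx2 (-0.50 ± 0.13) and the growth factor Fgf17 (-0.37 ± 0.09) fell as well. En1 and En2, which define the territory, were at -0.06 ± 0.15 and -0.14 ± 0.11. None of the 12 was called without C57BL/6J E14 replicate 2, and 1 was, as lower, with a term for each chip in the model.

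Of 13 measured genes of GABAergic progenitors 4 fell, and all 13 had a change below 0, with a median of -0.23, against 1.41% and 6253 of 14017 over all genes. The 4 calls became 1 without C57BL/6J E14 replicate 2, and 1 with a term for each chip. Besides Olig3 these were Ptf1a, the bHLH factor required for cerebellar GABAergic neurons, Neurog2 and Lhx5. Ptf1a was 8.71, 8.84 and 8.91 in C57BL/6J E15 and 9.11, 8.90 and 9.91 in DBA/2J E15, against 9.20 and 10.30 in C57BL/6J E14 and 9.14, 10.12 and 10.20 in DBA/2J E14, a change of -0.72 ± 0.20 with overlap (limma, adjusted p = 0.0255). Neurog2 and Lhx5 each changed by -0.54. Of 20 measured genes of the ventricular zone and radial glia 4 fell and none rose, with a median change of -0.19: the Notch target Hes5 (-0.82 ± 0.23), the receptor Notch1 (-0.45 ± 0.13), Id3, an inhibitor of bHLH factors (-0.43 ± 0.12), and the apical membrane protein Prom1 (-0.41 ± 0.11). Their E15 and E14 arrays overlapped, and without C57BL/6J E14 replicate 2 none of the 20 was called. With a term for each chip none of the 20 was called lower and 1 was called higher, and Hes5 was at -0.37 (adjusted p = 0.404 by limma) and Notch1 at -0.30 (adjusted p = 0.0945 by limma). Sox2 (-0.49 ± 0.20) and Nes (-0.05 ± 0.24) did not pass.

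Of 26 measured genes of cell division none was called by limma, with a median change of -0.06, and Mki67, a marker of cycling cells, was at 0.10 ± 0.15, Top2a at -0.13 ± 0.13 and Cdk1 at 0.05 ± 0.14. Without C57BL/6J E14 replicate 1, limma called 2 of the 26 lower at E15. Of 12 measured genes of the rhombic lip and granule cell progenitors 2 fell, Ccnd2, a D-type cyclin of progenitors, and the homeobox factor Msx1 (-0.61 ± 0.15), where 1.41% of all genes fell. With a term for each chip 1 of the 12 was called lower. Within the chip that held both ages of C57BL/6J, Ccnd2 differed by -0.17 and Msx1 by -0.05. Ccnd2 was 12.33, 12.56 and 12.32 in C57BL/6J E15 and 12.31, 12.58 and 12.45 in DBA/2J E15, against 12.73 and 12.83 in C57BL/6J E14 and 13.24, 12.94 and 13.36 in DBA/2J E14, a change of -0.56 ± 0.12 with no overlap (limma, adjusted p = 0.0026). Barhl1, Pax6 and Zic1, which mark the granule cell lineage, were at 0.17 ± 0.09, 0.20 ± 0.15 and 0.25 ± 0.17 and did not pass.

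In the Sonic hedgehog pathway, through which Purkinje cells later drive granule cell progenitors to divide, 1 of 14 measured genes rose and 2 fell. The shares over all genes were 3.96% rising and 1.41% falling. Gli3, the Gli factor that acts mainly as a repressor, was 9.53, 9.84 and 9.42 in C57BL/6J E15 and 9.79, 9.88 and 9.44 in DBA/2J E15, against 10.30 and 10.12 in C57BL/6J E14 and 10.53, 10.36 and 10.44 in DBA/2J E14. All E15 arrays were lower than all E14 arrays, and the change of -0.68 ± 0.09 (limma, adjusted p = 2.94e-06) kept its call under every alternative. Cdon, a coreceptor for the ligand, changed by -0.39 ± 0.08, and Hhip, an antagonist that binds the ligand, rose by 0.36 ± 0.10, with values of 6.34 to 6.88 at E15 and 6.19 to 6.27 at E14 that lie around the array median. The ligand Shh (0.31 ± 0.13), the receptor and target Ptch1 (0.36 ± 0.18) and the transducer Smo (0.13 ± 0.19) did not pass.

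Of 18 measured Purkinje cell genes 4 rose and none fell, with a median change of 0.25 (3.96% of all genes rose and 1.41% fell). With a term for each chip in the model 3 were called higher and 2 lower. Aldoc, the glycolytic enzyme zebrin II that marks a subset of Purkinje cells and also astrocytes, was 10.37, 10.75 and 10.18 in C57BL/6J E15 and 10.27, 9.94 and 9.68 in DBA/2J E15, against 9.38 and 8.66 in C57BL/6J E14 and 9.37, 9.26 and 9.24 in DBA/2J E14, a rise of 1.04 ± 0.21 without overlap (limma, adjusted p = 0.00168). The calcium buffer Calb1 rose by 0.71 ± 0.20 and the reelin adaptor Dab1 by 0.71 ± 0.13. The Purkinje cell genes Pcp2 (-0.40 ± 0.27), Foxp2 (0.33 ± 0.15) and Rora (0.57 ± 0.28) did not pass. None of the 18 was called without C57BL/6J E14 replicate 2.

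Of 15 measured genes of granule neurons 2 rose and 1 fell, with a median change of 0.27: the adhesion molecule Cntn1 (0.85 ± 0.21) and the calcium buffer calretinin, Calb2 (0.67 ± 0.18), against Cntn2. For this list and the next 2, the shares over all genes were 3.96% rising and 1.41% falling. Of 10 measured genes of GABAergic interneurons 2 rose, the glycine receptor subunit Glra2 (0.58 ± 0.13) and Gad1, the enzyme that makes GABA (0.53 ± 0.14), while Gad2 was at -0.29 ± 0.18 and did not pass. With a term for each chip 1 interneuron gene was called higher and 2 lower, and Gad1 differed by -0.07 within the chip that held both ages of C57BL/6J. Of 11 measured genes of cerebellar nuclear and unipolar brush neurons 4 fell, with a median change of 0.02. These were the transcription factors Pou3f1 (-0.75 ± 0.13), Irx3 (-0.67 ± 0.16), Lhx2 (-0.41 ± 0.11) and Lhx9 (-0.37 ± 0.11), and Tbr1 (0.05 ± 0.10) and Eomes (0.30 ± 0.16) did not pass. Pou3f1 was 8.18, 8.19 and 7.65 in C57BL/6J E15 and 7.83, 7.97 and 8.12 in DBA/2J E15, against 8.42 and 9.04 in C57BL/6J E14 and 8.52, 8.72 and 9.03 in DBA/2J E14, with no overlap (limma, adjusted p = 0.000157). Of the calls in these 3 lists that of Pou3f1 alone remained without C57BL/6J E14 replicate 2, and with a term for each chip 1 gene of the nuclear list was called higher and 1 lower.

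Of 21 measured presynaptic genes 4 rose and none fell, with a median change of 0.33 and 18 of 21 above 0. Over all genes 3.96% rose and 7764 of 14017 had a change above 0. They included Sncb, which encodes beta-synuclein (1.00 ± 0.21), the vesicle protein Syp (0.73 ± 0.21) and the calcium sensor of release Syt1 (0.44 ± 0.12). Of 22 measured postsynaptic and receptor genes 5 rose, with a median change of 0.22 and 21 of 22 above 0. Grik1, a kainate receptor subunit, was 9.24, 9.24 and 9.54 in C57BL/6J E15 and 9.04, 9.60 and 8.65 in DBA/2J E15, against 8.56 and 8.28 in C57BL/6J E14 and 8.47, 8.34 and 8.14 in DBA/2J E14. It rose by 0.85 ± 0.14 without overlap (limma, adjusted p = 4.92e-05) and a second probe for it was called too. The others included Dlg2, the metabotropic receptor Grm5 (0.79 ± 0.22) and the kinase subunit Camk2b (0.62 ± 0.17). Without C57BL/6J E14 replicate 2 the count of called members was 2 of 21 for the presynaptic and 1 of 22 for the postsynaptic list, all higher, and with a term for each chip it was 6 and 5, all higher.

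Of 13 measured neuropeptide and secretory granule genes 4 rose, where 3.96% of all genes rose, with a median change of 0.37, at 0.14 in DBA/2J and 0.35 in C57BL/6J. Without C57BL/6J E14 replicate 2 the call of Cck alone remained. The peptides Cck and Tac1 rose by 0.70 ± 0.12 and 0.66 ± 0.18, and the granins Scg2 and Chga by 0.60 ± 0.15 and 0.38 ± 0.10. Cck was 7.62, 7.69 and 7.66 in C57BL/6J E15 and 7.47, 7.29 and 7.28 in DBA/2J E15, against 7.01 and 6.68 in C57BL/6J E14 and 6.37, 7.21 and 6.71 in DBA/2J E14, with no overlap (limma, adjusted p = 0.00031). Of 18 measured ion channels and transporters 1 rose and none fell, with a median change of 0.11. None of 16 measured genes of the neuronal cytoskeleton and growth cone was called, with a median change of 0.04, and Dcx, a microtubule protein of migrating neurons, was at 0.03 ± 0.13.

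**Figure D3:**
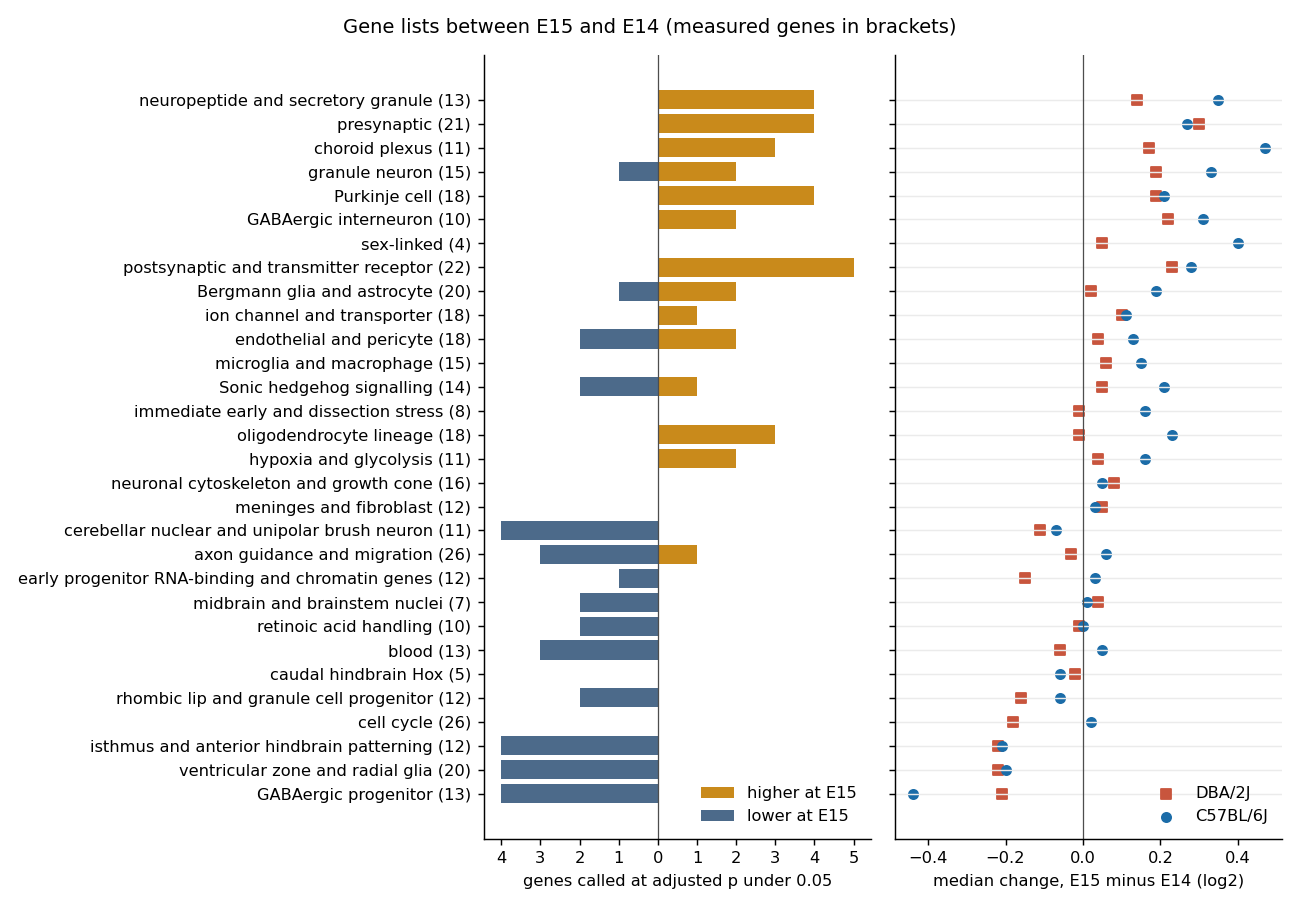
Left, genes called higher (right of 0) or lower (left of 0) at E15 in each gene list, with the number of measured genes in brackets; right, median change of the list in DBA/2J (squares) and C57BL/6J (circles) on the log2 scale. Calls in the synaptic, peptide and Purkinje cell lists are in the rising direction and calls in the progenitor and patterning lists in the falling direction in the fit shown, which has no term for the chips.

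In the glial lists the calls were few, where 3.96% of all genes rose and 1.41% fell. Of 18 measured genes of the oligodendrocyte lineage 3 rose, with a median change of 0.07, at -0.01 in DBA/2J and 0.23 in C57BL/6J. The change was above 0 for 8 of the 18 in DBA/2J and for 16 in C57BL/6J, and DBA/2J alone had 0 calls among them. Olig1, a bHLH factor of oligodendrocyte precursors, lay between 10.94 and 11.10 in C57BL/6J E15 and was 10.55, 10.74 and 10.34 in DBA/2J E15, against 9.30 and 9.60 in C57BL/6J E14 and 9.66, 10.03 and 10.40 in DBA/2J E14. In C57BL/6J the groups stood apart, and in DBA/2J they overlapped, with a rise over both strains of 1.04 ± 0.18 (limma, adjusted p = 0.000147). Pdgfra and Sox8, also of precursors, each rose by 0.74, and the myelin gene Mbp (-0.24 ± 0.38) did not pass. Of 20 measured genes of Bergmann glia and astrocytes 2 rose, Tnc and the secreted protein Sparcl1 (1.04 ± 0.30), and 1 fell, the transcription factor Zbtb20 (-0.64 ± 0.14). The median change of that list was 0.02 in DBA/2J and 0.19 in C57BL/6J. Slc1a3, the glutamate transporter of radial glia, was at 0.51 ± 0.17 and did not pass (adjusted p = 0.0759 by limma).

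Markers of neighbouring and non-neural tissue were measured alongside, where 3.96% of all genes rose and 1.41% fell. Of 11 measured choroid plexus genes 3 rose, Otx2 (0.67 ± 0.19), Trpm3 (0.45 ± 0.12) and Prlr (0.44 ± 0.06), with a summed signal of 1757 to 2326 at E15 and 1453 to 1838 at E14, while the defining marker Ttr ran from 6.72 to 7.84 at E15 and from 6.84 to 7.04 at E14 and did not pass. Otx2 was also listed as a midbrain marker. Of 18 measured endothelial and pericyte genes 2 rose, Rgs5 and Slco1c1, and 2 fell, Mfsd2a and Kdr, with summed signals of 6199 to 7071 at E15 and 6273 to 7833 at E14. None of 15 measured microglial, 12 meningeal, 5 caudal hindbrain Hox or 8 immediate early genes was called. Of 7 measured genes of midbrain and brainstem nuclei 2 fell, the homeobox factor Isl1 (-0.52 ± 0.14) and Th, the first enzyme of catecholamine synthesis (-0.44 ± 0.10), with summed signals of 1022 to 1315 at E15 and 1193 to 1444 at E14. Of 11 measured genes of hypoxia and glycolysis 2 rose, the glucose transporter Slc2a3 (0.48 ± 0.09) and the glycolytic enzyme Aldoa (0.35 ± 0.10), with summed signals of 14662 to 15110 at E15 and 11788 to 14260 at E14. The summed signal of the blood list was 46597 to 54331 at E15 and 43162 to 64246 at E14. With a term for each chip 2 choroid plexus genes were called higher, and 1 endothelial or pericyte gene higher and 1 lower. In that fit 1 gene of midbrain and brainstem nuclei was called lower and 1 of hypoxia and glycolysis higher. Whether a differing share of these tissues had a part in the changes above was not tested.

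The changes had the same sign in both strains for 752 of the 753 genes called over both, and their size was larger in C57BL/6J for 611 of them, with a median size of 0.38 in DBA/2J and 0.59 in C57BL/6J. The 753 were chosen on the mean of both strains, which favours a shared sign, so the count of 752 describes them and tests nothing. The C57BL/6J E14 mean rests on 2 arrays, of which replicate 2 lay near E13 at 0.18, and its part in the larger size was not tested. Taken alone, DBA/2J had 51 called probes (0.191%), 37 higher (0.139%) and 14 lower (0.0525%), and C57BL/6J had 421 (1.58%), 337 higher (1.26%) and 84 lower (0.315%). With only the 11 arrays in the fit 0 probes were called in either strain alone. The difference between the strains in the change was called for no probe by limma, 1245 probes (4.67%) had an unadjusted p under 0.05, and the lowest adjusted p was 0.87. No probe was called for that difference under any of the 26 alternatives. Among the named genes, Olig1 rose by 0.51 ± 0.23 in DBA/2J and 1.56 ± 0.26 in C57BL/6J, a difference of -1.05 ± 0.35 (adjusted p = 0.87 by limma). Hbb-y changed by -1.02 ± 0.44 in DBA/2J and -2.40 ± 0.50 in C57BL/6J, a difference of 1.37 ± 0.67 (adjusted p = 0.87 by limma). Hbb-bh1 ran the other way, with -1.72 ± 0.26 in DBA/2J and -0.94 ± 0.30 in C57BL/6J, a difference of -0.78 ± 0.40 (adjusted p = 0.87 by limma).

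**Figure D4:**
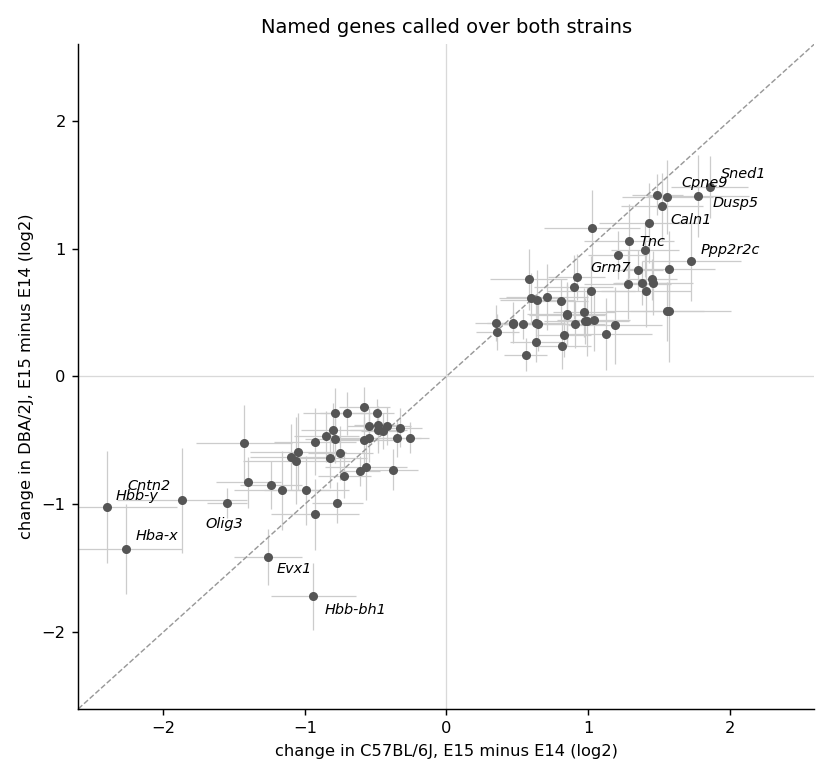
Change from E14 to E15 on the log2 scale in DBA/2J (vertical axis) against C57BL/6J (horizontal axis) for the 88 genes of the lists and of the largest changes that were called over both strains, with bars of 1 SE and a dashed line of equal change. The genes share their sign in both strains, and most lie on the side of larger change in C57BL/6J, whose E14 mean rests on 2 arrays. A shared sign was required of the 30 genes of the largest changes, and choice on the mean of both strains favours it in the others.

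With DBA/2J taken alone 42 of 14017 genes passed (0.3%), 32 higher (0.228%) and 10 lower (0.0713%), and with C57BL/6J taken alone 309 passed (2.2%), 261 higher (1.86%) and 48 lower (0.342%). Among the 15 largest rises over both strains Sned1, Dusp5, Cpne9, Sphk1, Caln1, Grm7 and Mfge8 were among those that passed in each strain separately. Among the 15 largest falls Evx1, Olig3, Crabp2 and Chst8 passed in each strain separately. Hba-x passed in C57BL/6J (-2.26 ± 0.39, adjusted p = 0.000669 by limma) and not in DBA/2J (-1.35 ± 0.35, adjusted p = 0.105 by limma). Gli3 also passed in each, with -0.74 ± 0.12 in DBA/2J and -0.61 ± 0.14 in C57BL/6J.

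The chips on which the arrays lay are identified in the table headers. The 11 arrays came from 7 chips, and 2 of these held arrays of both ages. On the one that held both ages of C57BL/6J, E15 replicate 2 and E14 replicate 1, the most changed genes can be set side by side, though they were chosen with these arrays among the 11 and their direction there is no separate evidence. Sned1 was higher at E15 by 1.73, Dusp5 by 1.88 and Sphk1 by 0.93, and Hba-x was lower with a difference of -2.07. In DBA/2J no chip held both ages, and within the only pair from chips with like numbers, E15 replicate 2 and E14 replicate 2, Sned1 differed by 1.70 and Hba-x by -2.25. When each chip was given its own term in the model, 1117 probes passed over both strains, and 633 of the 1097 original calls remained among them in the same direction. With a block for chips whose numbers begin alike 1381 were called, and 877 of the 1097 remained.

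In the neighbouring ages 23 of the 30 most changed genes moved in the same direction from E13 to E14 and from E15 to E16 in both strains, and 7 did not: Tnc, Cntn2, Crabp1, H2ac18, Chst8, Tnpo1 and Ezh2. Mean Sned1 signal in DBA/2J was 7.42 at E13, 8.53 at E14, 10.01 at E15 and 10.30 at E16, and in C57BL/6J it was 7.35, 8.68, 10.53 and 11.05 at the same ages. Mean Hba-x signal in DBA/2J was 12.42 at E13, 11.46 at E14, 10.11 at E15 and 8.57 at E16, and in C57BL/6J it was 12.69, 11.26, 9.0 and 7.35. Olig3 ran from 9.61 at E13 through 8.72 and 7.74 to 7.24 at E16 in DBA/2J, and from 9.60 through 8.59 and 7.04 to 6.93 in C57BL/6J. Mean Cntn2 signal in DBA/2J was 10.23 at E14, 9.25 at E15 and 9.26 at E16, and in C57BL/6J it was 10.54, 8.66 and 9.90. Mean Ezh2 signal in DBA/2J was 10.72 at E14, 10.06 at E15 and 10.37 at E16, and in C57BL/6J it was 8.94 at E15 and 10.39 at E16. These means describe the course and were not tested here. The same count was not taken over all genes, so the 23 of 30 describes the chosen genes only.

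**Figure D5:**
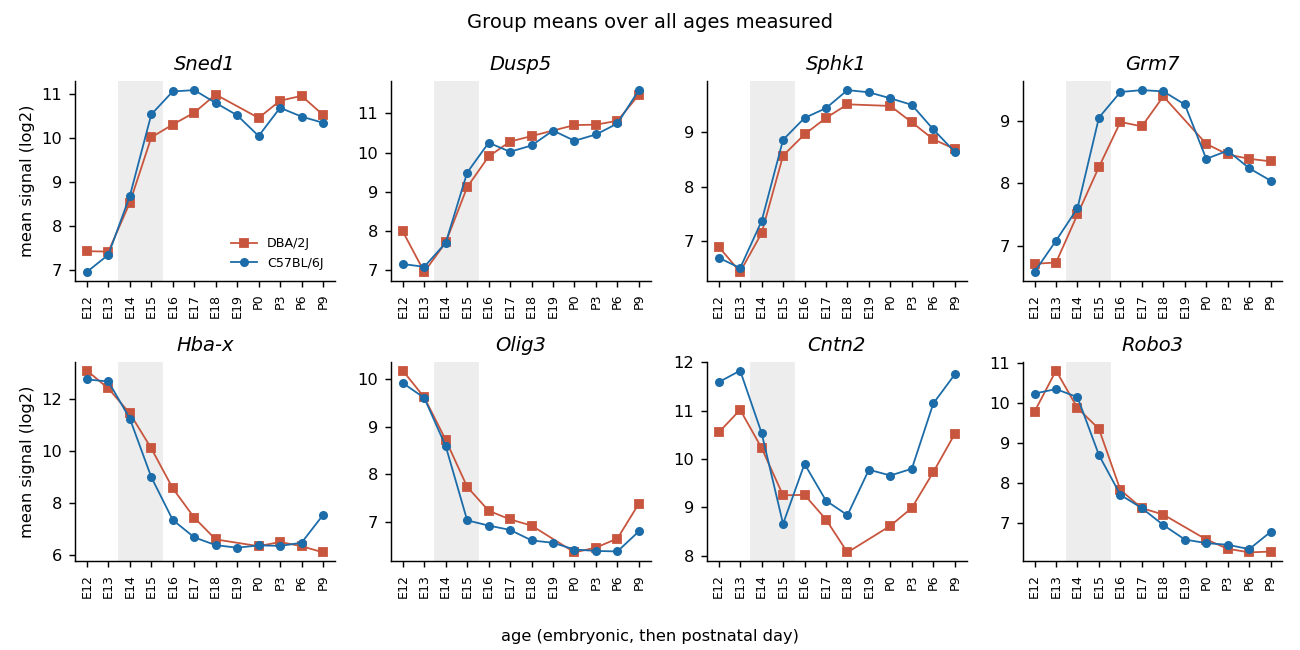
Mean normalised signal on the log2 scale (vertical axis) of 8 genes at every age measured (horizontal axis) in DBA/2J (squares) and C57BL/6J (circles), with E14 and E15 shaded. Sned1, Dusp5, Sphk1 and Grm7 climb through the shaded step, and Hba-x, Olig3, Cntn2 and Robo3 descend through it.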

How the data were processed

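RNA of whole cerebellum was measured on 66 Illumina bead arrays, 11 of them from E15 or E14. For 46632 probes, the authors deposited mean bead signals, an intensity as the headers name it, with a separate table for each strain. The labels and headers used here do not state whether background was subtracted. The authors also deposited a matrix of scores with equal mean and spread on every array, which served only as an alternative. The signals of all arrays were quantile normalised together, floored at 1 and taken to log2. Dim probes were dropped: 26645 exceeded the median of the array throughout some strain and age group with 2 or more arrays, and these were kept. limma 3.58.1 in R 4.3.3 fitted 1 mean for each strain and age over all 66 arrays (43 residual degrees of freedom), and tests were two-sided with Benjamini-Hochberg adjustment. The brightest detected probe stood for each of 14017 genes. Probe names were matched to RefSeq for GRCm38.p6 (26307 by symbol, 7973 by an older symbol), and 12352 that did not match were left out of gene counts. The files name no build.

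The members and the gene lists were chosen with earlier results of these data known. Named are the 15 largest rises and 15 largest falls called with 1 sign in both strains, up to 4 called members of each of 30 lists in each direction, other list members to state a value, and tissue markers; some genes that this rule takes in are not reported here. Same-numbered arrays of the 2 ages within a strain did not all deviate together (correlations of -0.355 and -0.277 in C57BL/6J and 0.508, 0.0221 and 0.648 in DBA/2J), so the numbers were not taken to pair samples. Arrays of 1 group correlated at 0.9656 to 0.9923 across probes, array medians of the 11 arrays ran from 80.7 to 96.1 before normalisation, and the number of arrays limits the precision. The fit was tested on simulated data with known changes, whose noise was independent between arrays. That simulation held no chip effect and no array off its stage, so it cannot show how the fit behaves with them. The 26 alternatives varied the normalisation, offset, filter, values, blocks, weights and arrays in the fit.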

Additional observations from a re-analysis of the deposited data

How the results depend on the processing

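Over both strains 1097 probes were called. The count moved by over 1.5 times with scaling to the same median (648), with no further normalisation (708) and with only the 11 E15 and E14 arrays in the fit (162). The last alternative has 7 residual degrees of freedom. Leaving out 1 array at a time gave 147 to 2980 calls, with C57BL/6J E14 replicate 2 and replicate 1 at the ends. Leaving out 1 array of that group leaves a lone array, which is then assumed to vary like the other groups. In C57BL/6J alone 421 probes were called, against 215 with median scaling, 990 with chip as a random block, 0 with only the 11 arrays, 184 with estimated array weights and 11 to 3062 with 1 array left out. In DBA/2J alone 51 were called, against 18 with median scaling, 19 with no further normalisation, 19 with chip as a fixed block, 97 with chip as a random block, 183 with array series as a block, 0 with only the 11 arrays and 10 to 89 with 1 array left out. At an unadjusted p under 0.05 the fits with only the 11 arrays passed 2714 probes for C57BL/6J and 1353 for DBA/2J. The strain difference stayed at 0 called probes in all 26 alternatives and in every fit without 1 array. With the replicate number as a replicate block 1278 probes were called over both strains, 631 in C57BL/6J, 56 in DBA/2J and 0 for the strain difference. Among the 88 called genes of the lists and of the largest changes none took the opposite sign, and 24 kept their call in all 26 alternatives. Without C57BL/6J E14 replicate 2, 57 of them lost it, and with only the 11 arrays 54 did. The cause of these shifts was not tested, and without detection p-values dim signals could not be bounded.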

Other observations

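Gene families read from the start of the symbol showed further groups that the lists did not hold, and these families were chosen after their values were seen. Of 42 measured histone genes 13 were lower at E15 and none was higher, with a median change of -0.46 and 40 of 42 below 0. Over all genes 1.41% were lower and 3.96% higher, and 6253 of 14017 had a change below 0. In DBA/2J the median was -0.50 and in C57BL/6J -0.36. H2ac18 ran from 7.77 to 8.28 at E15 and from 8.47 to 9.75 at E14 (-0.94 ± 0.20), H2ac15 from 11.43 to 12.88 at E15 and from 12.23 to 13.62 at E14 (-0.83 ± 0.16), and H3c4 from 8.58 to 9.11 at E15 and from 9.22 to 10.32 at E14 (-0.72 ± 0.19). Many histone genes package newly copied DNA and have transcripts without a poly(A) tail, and copies are so alike that probes may not separate them. The family as read here also takes in histone variants, among them the called H2az2 (-0.30 ± 0.08). The cell cycle list beside them had 0 of 26 called and the Mcm helicase 0 of 9 measured. Without C57BL/6J E14 replicate 2 none of the 42 was called, and 12 were with chip as a block.

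Of 19 measured cadherin genes, cell adhesion molecules that sort neurons into groups, 6 rose and none fell, with a median change of 0.06, against 3.96% and 1.41% over all genes. Cdh9 ran from 7.03 to 7.41 at E15 and from 6.34 to 6.45 at E14 (0.80 ± 0.08, adjusted p = 8.51e-10 by limma), Cdh7 from 7.83 to 8.33 at E15 and from 6.84 to 7.50 at E14 (0.84 ± 0.11), and Cdh8 from 7.78 to 8.57 at E15 and from 7.11 to 7.67 at E14 (0.95 ± 0.14). The others were Cdh10 (0.52 ± 0.10), Cdh13 (0.51 ± 0.12) and Cdh20 (0.43 ± 0.13), and without C57BL/6J E14 replicate 2 the count was 4. Of 22 measured sulfotransferases of sugar chains 6 rose and 1 fell, with a median change of 0.14, and without C57BL/6J E14 replicate 2 the count was 3. Hs6st2, which sulfates heparan sulfate, ran from 9.65 to 10.35 at E15 and from 8.74 to 9.72 at E14 (0.94 ± 0.17, adjusted p = 0.000289 by limma), Chst1 rose by 0.48 ± 0.08 and Chst7 by 0.49 ± 0.11, while Chst8 fell. Of 24 measured glutamate receptor genes 6 rose and none fell, and besides Grm7, Grik1 and Grm5 they included Grin3a (0.82 ± 0.13) and Grm8 (0.65 ± 0.11), with a count of 4 without that array. The shares over all genes given above apply to these families too. Among 48 ribosomal protein genes, 45 proteasome genes and 77 respiratory chain genes none was called.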
